A study of Mus musculus with 8 samples.

Results

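At E13.5, 845 of the 1981 cells kept from a sort for thymic epithelial cells (TEC), or 42.7% (95% exact binomial interval 40.5 to 44.9), carried at least 1 unique molecular identifier (UMI, a tag that marks 1 captured transcript) of Psmb11 and little of the genes of the neighbouring lineages. These cells are called Psmb11 cells here. They were chosen from cells with at most 5% mitochondrial UMIs and at most 5000 detected genes by 4 limits, namely at least 1 UMI of Psmb11, fewer than 2 UMIs of Krt5, fewer than 3 UMIs of Gcm2, Chga and Casr together and fewer than 2 UMIs of Hhex, Nkx2-1 and Pax8 together. Gcm2, Chga and Casr mark parathyroid cells, and Hhex, Nkx2-1 and Pax8 mark thyroid cells. All 8 libraries together held 25750 kept cells.

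The study followed thymic epithelium by single-cell RNA-seq of C57 B6 (CD45.2) WT mice. Total TEC were sorted at E13.5 as DAPI-, EpCAM+ and CD45-. Cortical TEC (cTEC), which also had to be Ly51+ and UEA-1-, came from E15.5, E17.5, newborn (NB, 0 to 2 days of age) and adult mice (4 to 6 weeks), and medullary TEC (mTEC, Ly51- UEA-1+) from adult mice. Each fetal and NB age had 1 library and each adult group had 2, captured as data set 1 (E13.5, E15.5, NB, first adult libraries) and data set 2 (E17.5, second adult libraries). No source used here says how many embryos were pooled. Embryonic thymi were dissociated with trypsin, whereas newborn and adult thymi were digested with Liberase and enriched on Percoll, so that this step cannot be told apart from age between fetal and later libraries.

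The thymic cortex is where immature T cells are first tested for receptors that recognise self-MHC. Cortical epithelial cells express the transcription factor Foxn1, which is needed for the thymic rudiment to mature, and secrete chemokines and cytokines that draw in and nourish blood-borne progenitors. They also make a private set of peptides for positive selection. The thymoproteasome, a proteasome whose catalytic subunit beta5t is encoded by Psmb11, makes those for MHC class I, and the thymus-specific serine protease Prss16 and cathepsin L (Ctsl) act on the class II side. Precursors of both cortical and medullary cells are known to pass through a stage with Psmb11 expression in the fetal thymus.

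Psmb11 (GRCm38, chromosome 14, 54621433 to 54629556, plus strand) was thinly spread over the cells that it defined. They held between 1 and 23 UMIs of it, with a median of 2 and quartiles of 1 and 4. At the edge of the limit, 282 of the 845 cells (33.4%) had exactly 1 UMI and 475 cells that passed every other limit had 0, while 33 cells had 10 or more. Krt5 was at 0 UMIs in 672 of the Psmb11 cells and at 1 UMI in the other 173. The kept cells outside the definition numbered 1136. They comprised the 475 cells without a Psmb11 UMI, 451 cells with 2 or more UMIs of Krt5 (Krt5 cells, of which 216 also had Psmb11), 138 with the parathyroid genes and 72 with the thyroid genes. A cell over several limits was counted by the parathyroid genes first, then by the thyroid genes, then by Krt5. Median depth was 7069 UMIs in the Psmb11 cells and 7105 in those without Psmb11, against 7724 in Krt5 cells, 4373.5 in parathyroid-gene cells and 6532.5 in thyroid-gene cells.

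In droplet data, transcripts freed from broken cells can be counted in cells that do not make them. How much of any gene here was free RNA was not tested. Of Pth, the parathyroid hormone gene, the pooled level was 40163 CPM (counts scaled to 1000000 UMIs) in parathyroid-gene cells and 82.7 in Psmb11 cells, 86.4 in cells without Psmb11 and 79.7 in Krt5 cells. Psmb11 itself had a UMI in 12.3% of parathyroid-gene cells (7.34 to 18.99) and 4.17% of thyroid-gene cells (0.87 to 11.7), at the depths above. The intervals on CPM (exact Poisson), on ratios of CPM and on shares cover counting error only. With 1 library there is no replicate of the E13.5 comparison, so these differences carry no test. Genes are called at 2-fold on the log2 ratio of CPM plus 10, among those at 20 CPM or more in the higher group.

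Among the other limits of the data, 74 of the kept E13.5 cells, 30 of them Psmb11 cells, had a barcode that also occurred among the kept cells of another library, 22 of them in the E17.5 library and 18 in that of E15.5. Without them the Psmb11 cells made up 42.7% of the library, as before. Markers of other cell types were low in the Psmb11 cells. The 14 thymocyte genes summed to 9.36 CPM, with Cd3d, Cd3e, Cd3g, Rag1, Rag2, Ptcra, Cd8a and Dntt at 0. The 8 myeloid genes summed to 2.65 CPM, with Lyz2, Csf1r, Tyrobp, C1qa and C1qb at 0. The 7 endothelial genes summed to 21.7 CPM, all of it from Egfl7 (16.9) and Pecam1 (4.84), with the other 5 at 0. Epcam, the epithelial adhesion molecule used for the sort, had a UMI in 95.4% of the cells.

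Of the 3 marker genes of these cells, Prss16 and Foxn1 were not used by the definition, and both were highest in the Psmb11 cells. Prss16 (GRCm38, chromosome 13, 22002173 to 22009742, minus strand) stood at 684 CPM (664 to 705) in Psmb11 cells. It stood at 266 in cells without Psmb11, 490 in Krt5 cells, 128 in parathyroid-gene cells and 26.9 in thyroid-gene cells. Foxn1 (GRCm38, chromosome 11, 78357577 to 78386558, minus strand) was at 115 CPM (107 to 124) in Psmb11 cells, against 61.0, 86.4, 21.4 and 1.92 in the same order. The order of the 5 groups was the same for each gene. When every cell was thinned to 3000 UMIs, so that depth was equal, 75.7% of the Psmb11 cells had a UMI of Prss16 (91.4% before thinning) and 46.3% of the cells without Psmb11 did (61.3%). The share in parathyroid-gene cells was 17.2% (20.3%). For Foxn1 the thinned shares were 28.8%, 18.0% and 3.28%, and the unthinned ones 51.4%, 32.2% and 6.52%. Thinning left out 14 of the 845 Psmb11 cells, 19 of the 475 cells without Psmb11 and 16 of the 138 parathyroid-gene cells.

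**Figure D1:**
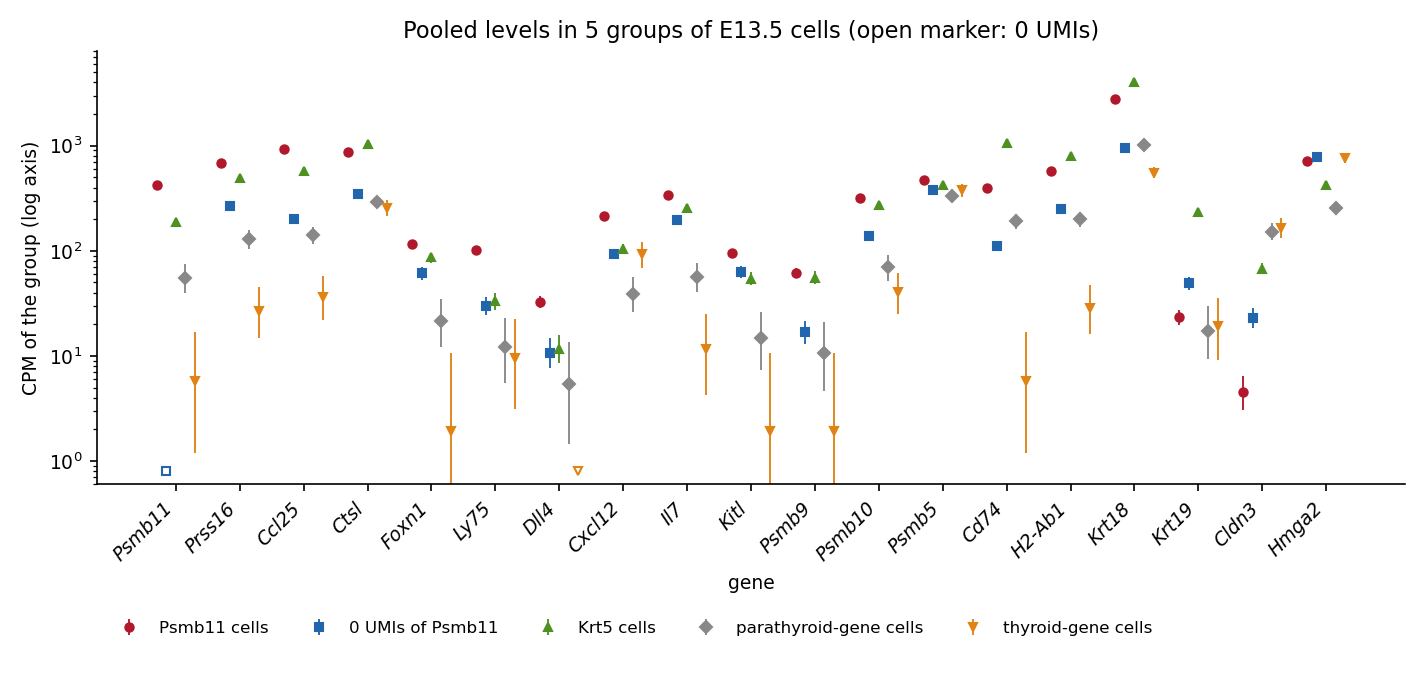
Pooled CPM (log axis) of 19 genes in the 5 groups of E13.5 cells, with exact Poisson intervals as bars. Psmb11 cells were the highest group for Prss16, Ccl25, Foxn1, Ly75, Dll4, Cxcl12, Il7 and Kitl, Krt5 cells for Ctsl, Cd74, H2-Ab1, Krt18 and Krt19, and Psmb5 differed little among the 5 groups.

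Several cortical genes stood higher in the Psmb11 cells. Of the 14 genes of the cortical list left after Psmb11, 12 reached 20 CPM, and 5 of them (Ccl25, Dll4, Cxcl12, Ly75 and Cd83) were 2-fold higher than in all other E13.5 cells and 0 were lower. Over all 6278 genes compared, 0.653% were 2-fold higher and 2.05% were 2-fold lower. The median log2 ratio was 0.89 in the cortical list and 0.02 over all genes. Against the cells without Psmb11 alone, 8 of 12 were 2-fold higher, with Prss16, Ctsl and Tbata added, where 1.02% of 6187 genes were higher and 0.372% lower. Against Krt5 cells, where 0.831% of 6379 genes were higher and 3.59% lower, 1 of 11, Ly75, was 2-fold higher and 0 were lower.

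The list of ligands that act on thymocytes was mixed. Of 11 at 20 CPM, 3 (Ccl25, Cxcl12 and Dll4) were 2-fold higher than in all other E13.5 cells and 2 (Ccl21a and Jag1) were lower. Against Krt5 cells 0 of 11 were higher and 3 (Ccl21a, Jag1 and Vcam1) were lower, where 0.831% of all genes were higher and 3.59% lower. Jag1, a Notch ligand, was at 19.2 CPM in Psmb11 cells and 62.7 in Krt5 cells, and Vcam1, an adhesion molecule, at 10.1 and 61.6. Both were under 20 CPM in Psmb11 cells and passed the minimum only through the group where they were higher. They could therefore only be called lower, and for Jag1 this holds against all other E13.5 cells as well.

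Ccl25, the chemokine that attracts thymus-seeding progenitors through CCR9, had the highest ratio to cells without Psmb11 of the 3 ligands that were higher. It stood at 939 CPM (915 to 963) in Psmb11 cells, 199 in cells without Psmb11, 573 in Krt5 cells, 141 in parathyroid-gene cells and 36.5 in thyroid-gene cells. The level was 4.72 times (4.37 to 5.11) that of the cells without Psmb11. Dll4, the Notch ligand that commits progenitors to the T lineage, was at 32.6 CPM against 10.8 in cells without Psmb11 and 11.7 in Krt5 cells. Cxcl12, a chemokine for early thymocytes, was at 213 CPM against 93.3 and 105. Il7, the survival cytokine of early thymocytes, was less uneven, at 336 CPM against 198 in cells without Psmb11 and 253 in Krt5 cells. Kitl, which encodes stem cell factor, was at 95.2 CPM against 62.4 and 54.2. Both fell short of 2-fold. After thinning, Dll4 had a UMI in 10.1% of Psmb11 cells, 3.29% of cells without Psmb11 and 0.82% of parathyroid-gene cells (20.9%, 7.79% and 2.90% unthinned), and Il7 in 62.6%, 40.4% and 9.02% (85.3%, 65.9% and 11.6%).

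The cathepsin L gene did not follow the same order. Ctsl was at 875 CPM in Psmb11 cells and 348 in cells without Psmb11, but at 1033 in Krt5 cells. Tbata, a gene of thymic epithelium, was at 79.3 CPM in Psmb11 cells, 15.2 in cells without Psmb11 and 164 in Krt5 cells. Enpep, which encodes the Ly51 antigen used to sort cTEC at later ages, was at 2.65 CPM from 17 UMIs and reached 20 CPM in none of the 5 groups. Ackr4, an atypical chemokine receptor of the adult cortex, was at 5.46 CPM.

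The 12 genes with the highest log2 ratio against all other E13.5 cells were led by Ly75, the endocytic receptor DEC-205 of cortical epithelium and dendritic cells. It was at 101 CPM (93.5 to 109) against 28.4, a ratio of 3.56 (3.07 to 4.14). Then came Cdh8, a cadherin, at 57.7 CPM against 14.9. Fgf14, an intracellular partner of sodium channels, followed at 150 CPM against 49.5. The rest were Ccl25, Pithd1, Crip3, Gm13205, Hes6, Slc22a7, Ppp1r16b, Hpgd and Cyp26b1, with ratios of CPM between 2.55 and 4.05. Cyp26b1, an enzyme that degrades retinoic acid, had the highest of these ratios, at 31.4 CPM against 7.74. Hpgd, which inactivates prostaglandins, was at 157 CPM against 61.5, and Slc22a7, an organic anion transporter, at 49.0 against 13.9. Hes6, a bHLH factor that counteracts Hes1, was at 714 CPM against 341 in cells without Psmb11, 254 in Krt5 cells, 225 in parathyroid-gene cells and 115 in thyroid-gene cells.

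The 12 genes with the lowest ratio were those of the cells that the limits left out. Pth, Ibsp, Sparcl1, Spp1, Gdpd1 and Spink8 were highest in parathyroid-gene cells. So was Ccl21a, a chemokine known from the medulla, at 7873 CPM there, 51.2 in Psmb11 cells and 363 in Krt5 cells. Mt1 and Mt2, the metallothioneins, were highest in thyroid-gene cells, at 643 and 455 CPM, and were at 7.80 and 2.65 in Psmb11 cells. Krt17, Krtdap and Bpifa1 were highest in Krt5 cells, where Krt17 was at 2458 CPM against 66.9 in Psmb11 cells. With parathyroid-gene and thyroid-gene cells taken out of the comparator, 27 genes in place of 41 were 2-fold higher in Psmb11 cells and 102 in place of 129 were lower.

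The cells without a Psmb11 UMI were the closest neighbours, since nothing but Psmb11 parted them. The 8 genes with the highest ratio against them were Ccl25, Ppp1r27, Crip3, Tbata, Cd74, H2-Aa, Plcd1 and Gm13205. Ppp1r27, a regulatory subunit of protein phosphatase 1, was at 74.4 CPM against 10.2, a ratio of 7.29 (5.21 to 10.5). Plcd1, a phospholipase C, was at 64.6 CPM against 13.53. The 8 genes with the lowest ratio were Lum, Spink8, Dcn, Igfbp5, Tshz2, Nr2f2, Atp1b1 and Cldn7. Lum and Dcn encode proteoglycans of connective tissue, and stood at 1.09 and 2.03 CPM in Psmb11 cells against 53.0 and 37.8 in cells without Psmb11. The whole mesenchymal list of 10 genes summed to 12.95 CPM in Psmb11 cells, with Postn at 0, and to 102 CPM in cells without Psmb11, and the part of such cells in the other differences was not tested. Igfbp5, a binding protein of insulin-like growth factors, was at 36.8 CPM against 160, and Tshz2, a zinc finger factor, at 43.7 against 172. Nr2f2, the nuclear receptor COUP-TFII, was at 1.72 CPM against 22.4.

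Class II presentation genes were present already and were higher in Krt5 cells than in Psmb11 cells. All 5 class II genes that reached 20 CPM (H2-Aa, H2-Ab1, H2-Eb1, Cd74 and H2-DMa) were 2-fold higher than in cells without Psmb11, with a median log2 ratio of 1.25. Over all 6187 genes of that comparison, 1.02% were higher. Against Krt5 cells, 3 of 5 (H2-Aa, H2-Eb1 and Cd74) were 2-fold lower, where 3.59% of 6379 genes were lower. Cd74, the invariant chain, was at 393 CPM in Psmb11 cells, 112 in cells without Psmb11, 1066 in Krt5 cells and 190 in parathyroid-gene cells. H2-Ab1 was at 580, 252, 793 and 199 CPM in these groups. On the class I side H2-K1 was at 31.2 CPM, H2-D1 at 23.1 and B2m at 106, each lower than in Krt5 cells, where they were at 112, 117 and 240. Ciita, the class II transactivator, was at 5.62 CPM.

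The subunits of the proteasome differed from each other. Psmb5, Psmb6 and Psmb7, the constitutive catalytic subunits, were at 473, 563 and 254 CPM in Psmb11 cells and at 380, 546 and 263 in cells without Psmb11, none of them 2-fold apart. Psmb10 and Psmb9, which encode catalytic subunits shared by the thymoproteasome and the immunoproteasome, were 2-fold higher in Psmb11 cells. Psmb10 was at 315 CPM against 140, a ratio of 2.25 (2.04 to 2.49), and Psmb9 at 61.5 against 16.8, a ratio of 3.65 (2.78 to 4.86). In Krt5 cells they were at 270 and 55.5 CPM. Psmb8, the immunoproteasome counterpart of Psmb11, was nearly silent, with 4 UMIs among all 845 cells, or 0.62 CPM.

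Few transcription factors of thymus formation were called, where 0.653% of all genes were 2-fold higher and 2.05% lower. Smaller differences leaned upward, with 10 of 11 above 0 and a median log2 ratio of 0.29, against 0.02 over all genes. Of 11 that reached 20 CPM, 0 were 2-fold higher than in the other E13.5 cells and 1, Sox9, was lower, at 22.2 CPM against 68.5. Pax1 was at 277 CPM in Psmb11 cells and 182 in cells without Psmb11, Eya1 at 99.4 and 122, and Trp63, the p63 gene of stratified epithelia, at 118 and 79.8. Pax9 was at 172 CPM and Isl1 at 164. The thyroid-gene cells had little of Pax1 (7.68) and Trp63 (1.92).

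Some genes of the medulla and of putative progenitors were lower in Psmb11 cells. Of the 18 genes on that list other than Krt5, 5 reached 20 CPM in the comparison with cells without Psmb11. There 2 of 5 (Cldn3 and Ccl21a) were 2-fold lower and 0 higher, with a median log2 ratio of -0.82. Over all 6187 genes compared, 0.372% were lower and 1.02% higher. Cldn3 passed the minimum only through the cells without Psmb11, so it could only be called lower. The wider comparator holds the Krt5 and parathyroid-gene cells that the limits removed, through which such genes pass the minimum, so its count is not given. Cldn3, a claudin linked to the medullary lineage, was at 4.53 CPM in Psmb11 cells, 22.9 in cells without Psmb11, 67.8 in Krt5 cells and 153 in parathyroid-gene cells. Plet1, a surface protein used to mark fetal TEC progenitors, was at 6.09, 19.9, 31.1 and 18.7. Aire and Fezf2 were at 0 among the 6408409 UMIs of the Psmb11 cells, which allows up to 0.468 CPM. Krt8 and Krt18, the keratins of simple epithelia, were at 2042 and 2782 CPM in Psmb11 cells against 807 and 947 in cells without Psmb11 and 2521 and 4065 in Krt5 cells.

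Within the Notch, FGF and BMP list, Hes6 was the gene 2-fold higher against the other E13.5 cells and Notch1 the gene 2-fold lower, of 15 that reached 20 CPM. Over all 6278 genes compared, 0.653% were higher and 2.05% lower. In the list, 10 of the 15 were below 0, with a median log2 ratio of -0.20. Notch1 was at 18.1 CPM in Psmb11 cells, 35.1 in cells without Psmb11 and 108 in Krt5 cells. It passed the minimum only through the comparator, so it could only be called lower. Id2, an inhibitor of bHLH factors, was at 110 CPM against 249 in cells without Psmb11 and 532 in thyroid-gene cells. Immediate early genes that respond to dissociation were lower than in Krt5 cells, with 6 of 11 at 2-fold or more, among them Fos (24.97 CPM against 186), Jun (62.0 against 202) and Egr1 (18.4 against 99.9). Over all 6379 genes compared, 3.59% were lower. Egr1 passed the minimum only through Krt5 cells. The part of immediate early genes in the other differences from Krt5 cells was not tested.

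Psmb11 cells with more Psmb11 had more of several other cortical genes. After thinning to 3000 UMIs, 229 of the 831 cells deep enough had 0 UMIs of Psmb11, 455 had 1 to 2, 137 had 3 to 5 and 10 had 6 or more, with median depths before thinning of 8044, 7075, 5925 and 6810.5. Ccl25 stood at 570, 941, 1547 and 2688 CPM over these 4 classes. Prss16 stood at 562, 651, 951 and 2062 CPM, and Foxn1 at 90.1, 112, 162 and 327. Without the last class of 10 cells, the class with 3 to 5 UMIs had 2.72 times (2.51 to 2.94) the Ccl25 of the class with 0, 1.69 times (1.55 to 1.85) the Prss16 and 1.79 times (1.43 to 2.24) the Foxn1.

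The same held for Krt18 (2.62 times), Cd74 (2.69), Psmb10 (2.19), Psmb9 (2.87), Ly75 (2.20) and Tbata (3.86). With another random draw of the thinning these ratios were 3.16, 3.57, 2.31, 2.47, 2.08 and 4.22. Dll4 was at 1.64 times (1.06 to 2.53). Psmb5 stayed at 1.07 times (0.95 to 1.19) and Kitl at 1.25 times (0.95 to 1.62), whose intervals include equality. Hmga2, a chromatin protein of fetal growth, went the other way, at 0.756 times (0.684 to 0.833), and so did Tshz2, at 0.318 times (0.179 to 0.532).

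**Figure D2:**
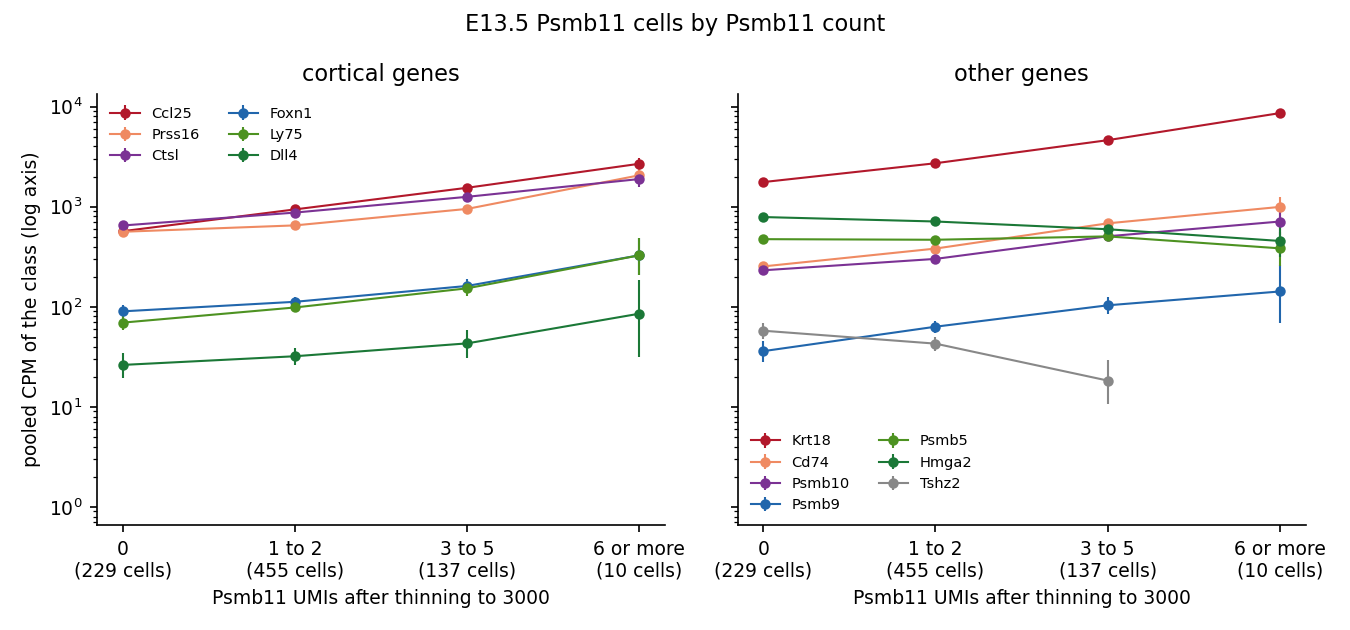
Pooled CPM (log axis, exact Poisson intervals as bars) of 6 cortical and 7 other genes in E13.5 Psmb11 cells by their Psmb11 UMIs after thinning to 3000. The cortical genes, Krt18, Cd74, Psmb10 and Psmb9 were higher in each next class, Psmb5 was nearly level, Hmga2 was lower in each next class, and Tshz2 had no UMI in the 10 cells of the last class.

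Nearly all Psmb11 cells carried cell-cycle transcripts. The 54 genes of the G2M list and the 43 of the S list made up 1.04% and 0.37% of their UMIs. At 3000 UMIs per cell, 87.0% (84.5 to 89.2) had at least 10 UMIs of the 2 lists together, with 56 of the 831 cells within 2 UMIs of that limit. The share was 92.3% in cells without Psmb11, 79.1% in Krt5 cells, 68.9% in parathyroid-gene cells and 92.9% in thyroid-gene cells. Mki67 was at 198 CPM and Top2a, the topoisomerase of dividing cells, at 486 CPM in Psmb11 cells.

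The 108 Psmb11 cells under 10 UMIs had more of some cortical genes than the other 723. Psmb11 itself was at 703 against 398 CPM, a ratio of 1.76 (1.58 to 1.96). Differences by cycle and by Psmb11 level thus overlap, and the part of each was not tested. Ccl25 was at 1911 CPM (1800 to 2027) in the former and 838 (814 to 862) in the latter, a ratio of 2.28. Prss16 was at 1176 against 634 CPM and Foxn1 at 205 against 106. The ratios of Dll4, at 1.37 (0.87 to 2.09), Kitl, at 1.29 (0.99 to 1.66), and Cd83, at 1.09 (0.77 to 1.5), had intervals that include equality. Krt18 and Cd74 had ratios of 2.66 and 2.55. Ppp1r27 had a ratio of 4.07 and Ccl21a, at 166 against 39.5 CPM, of 4.19. Hmga2 was lower, at 509 against 736.

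Cells that met the same limits made up more of the E15.5, E17.5, NB and second adult cTEC libraries than of the E13.5 library, and less of the first adult cTEC library (36.7%). The E15.5 library had 3169 such cells of 3571, that of E17.5 had 6984 of 8350 and that of NB mice 2998 of 3605. The first and second adult cTEC libraries had 186 of 507 and 303 of 535, and the adult mTEC libraries 17 of 1586 and 132 of 5615. Shares at equal depth rest on the cells with 3000 UMIs or more. This left out 58 cells at E13.5, 78, 136 and 108 in the E15.5, E17.5 and NB libraries, and 155 of the 507 and 26 of the 535 adult cTEC, whereas unthinned shares cover all kept cells. After thinning, 37.8% of the E13.5 library had a Psmb11 UMI (54.6% unthinned). The E15.5, E17.5 and NB libraries had shares of 90.9% (96.4%), 93.7% (99.2%) and 89.7% (94.5%), and the adult cTEC libraries 46.9% (44.6%) and 63.5% (67.1%). E13.5 had total TEC and the later libraries a Ly51+ UEA-1- gate, so that in these shares and in the gene levels that follow the gate cannot be told apart from age. Among the cells that met the limits, the median was 1 thinned UMI at E13.5, against 4 for each of the E15.5, E17.5 and NB libraries.

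**Figure D3:**
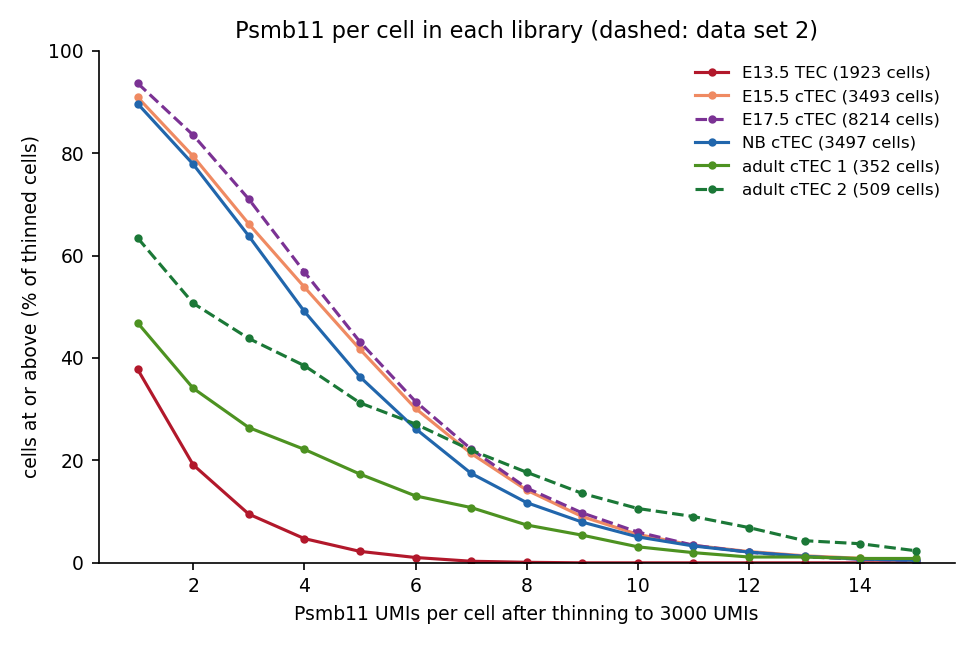
Share of the cells of each library with 3000 UMIs or more (y axis, percent) that had at least a given number of Psmb11 UMIs (x axis) after thinning to 3000 UMIs. The E13.5 curve starts at 37.8% and lies below all others, and the E15.5, E17.5 and NB curves start between 89.7% and 93.7%.

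At E15.5 the cells of the same limits had more of most cortical genes. Of 12 at 20 CPM, 8 were 2-fold lower at E13.5 and 0 higher (median log2 ratio -1.31), where 3.12% of 6420 genes were 2-fold higher and 4.31% lower. With the libraries taken in order of age and the adult ones last, Prss16 stood at 684, 2396, 3568, 3785, 3127 and 4032 CPM. Ctsl stood at 875 CPM in Psmb11 cells of E13.5, at 4360 in those of E15.5 and between 10586 and 13605 in the other 4 libraries. Tbata had the widest step of the list, with 79.3 CPM in the earlier and 2098 in the later library, a ratio of 26.5 (24.3 to 28.9). Foxn1 was close to level, at 115 CPM and then 145 CPM in these libraries and between 96.9 and 149 in the other libraries. Il7 likewise was at 336 and 357 CPM in the same pair of libraries. Dll4 was at 32.6 and 83.9, and Hes6 at 714 and 1177.

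Most presentation genes were lower at E13.5 than at E15.5. All 6 class II genes at 20 CPM were 2-fold lower than at E15.5 (median log2 ratio -2.69), and so were 8 of 11 class I genes. Cd74 stood at 393, 3683, 6626, 8802, 13769 and 13728 CPM from the E13.5 to the second adult library. B2m, the light chain of class I, was at 106, 533, 888, 1941, 4735 and 3151 CPM in the same order. Psmb9 was at 61.5 and 453 CPM in the first pair of ages, and Psmb10 at 315 and 1375. Psmb5 was at 473 CPM in both.

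The 6 genes with the lowest ratio to E15.5 were Tbata, Isg20, Krt17, H2-Aa, Cstb and Cxcl10. Isg20, an interferon-stimulated exonuclease, had 4.06 CPM in the E13.5 and 239 in the E15.5 cells, Cstb, a cysteine protease inhibitor, at 327 and 3804, and Cxcl10, an interferon-induced chemokine, at 3.28 and 119. The 6 with the highest ratio were Sox11, Hmga2, Cd24a, Pth, H19 and Ybx1. Sox11, a transcription factor of embryonic progenitors, had 97.2 CPM in the E13.5 and 1.85 in the E15.5 cells, a ratio of 52.6 (38.9 to 72.9). Hmga2 stood at 714 and 71.4 CPM, and then at 33.9 (E17.5), 18.2 (NB), 1.04 and 0.39 (adult). Of the fetal growth list, 4 of 7 genes (Igf2, H19, Hmga2 and Igf2bp1) were 2-fold higher at E13.5 and 0 lower, and Igf2 was at 58.5 CPM against 3.24. Pth was at 82.7 CPM against 5.01, and whether the cells made it or caught it was not tested.

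Cycle transcripts were more frequent at E13.5 than in any later library. In the single libraries of data set 1, the share of cells with at least 10 cycle UMIs was 87.0, 37.6, 25.2 and 7.14% for E13.5, E15.5, NB and adult mice. The E17.5 library of data set 2 had 19.01% and the adult one 13.2%. Against E15.5, 17 of 38 S phase genes and 7 of 52 G2M genes that reached 20 CPM were 2-fold higher and 0 were lower. Top2a had 486 CPM in the E13.5 and 256 in the E15.5 cells.

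Against the NB library, 8.39% of 6712 genes were 2-fold higher and 10.7% lower at E13.5. Lower were 9 of 13 cortical genes, all 7 class II genes and all 15 dissociation stress genes at 20 CPM. Higher were 48 of 52 G2M genes, 29 of 38 S phase genes and 16 of 80 ribosomal protein genes, with 0 lower in each. The ribosomal difference was not seen against every library. Against E15.5, 0 of 80 ribosomal protein genes were 2-fold higher or lower, and against E17.5 1 was higher and 12 lower. Against the first and second adult cTEC libraries, 45 and 16 were higher, and 6 and 11 lower.

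**Figure D4:**
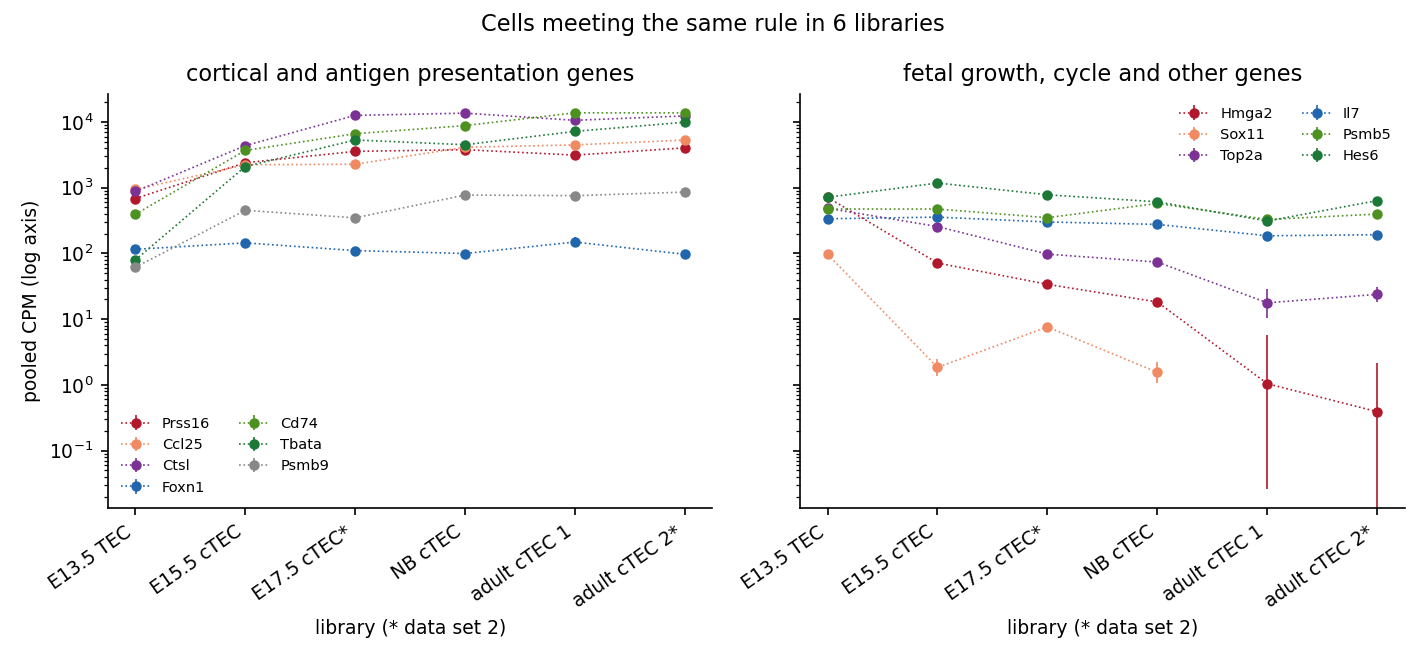
Pooled CPM (log axis, exact Poisson intervals as bars, most of them smaller than the points) of 13 genes in the cells of each library that met the same limits, with data set 2 marked by an asterisk. Prss16, Ccl25, Ctsl, Cd74, Tbata and Psmb9 were lowest at E13.5, Foxn1 stayed between 96.9 and 149 CPM in all 6 libraries, and Hmga2, Sox11 and Top2a were highest at E13.5. Points at 0 UMIs (Sox11 in both adult libraries) are not drawn.

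The adult libraries, whose counts the limits on E13.5 cells did not use, gave the only replicated comparison. The limits and lists themselves were chosen with earlier results of these data known. It asks in which adult sort gate the genes of the E13.5 Psmb11 cells stood higher. UMIs were summed over all kept cells of each library, and 2 adult cTEC libraries were set against 2 adult mTEC libraries in edgeR with data set as a term. Of the adult cTEC gate, 186 of 507 and 303 of 535 cells met the limits set at E13.5. A gene called higher in cTEC may thus come from gate cells outside those limits, which was not tested. Of 15650 genes tested, 1771 (11.3%) were higher and 3339 (21.3%) lower in cTEC at a Benjamini-Hochberg adjusted p under 0.05. The 4 libraries held between 2238190 and 67324065 UMIs. Markers of other cells moved with the groups: the thymocyte list summed to 176 and 133 CPM in cTEC and 95.7 and 87.4 in mTEC, with 6 of 13 tested genes higher in cTEC, as were 8 of 16 dissociation stress genes, while all 8 erythroid genes tested were lower. Without the cells that had 2 or more thymocyte UMIs, 1587 genes were higher and 2959 lower. The part of stress and erythroid transcripts in the calls was not tested. No source used here says whether the 2 libraries of a group came from separate mice.

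Of the 12 leading genes of E13.5 Psmb11 cells, 11 were higher in adult cTEC, 0 were lower and 1, Hes6, did not pass. Ly75 was at 264 and 174 CPM in the first and second adult cTEC libraries and at 5.53 and 7.84 in the mTEC libraries, with no overlap (log2 fold change 4.93, SE 0.45, edgeR adjusted p = 3.5e-13). Fgf14 was at 126 and 120 CPM in cTEC against 6.07 and 10.3 in mTEC (log2 fold change 3.87, SE 0.42, edgeR adjusted p = 6.89e-11). Ccl25 was at 2447 and 3868 CPM against 228 and 315 (log2 fold change 3.44, SE 0.46, edgeR adjusted p = 1.73e-08). Cdh8, Pithd1 and Gm13205 passed in the same direction, with log2 fold changes of 3.03, 3.26 and 2.05, and kept passing under all alternatives run.

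The other calls were less firm. Slc22a7 (log2 fold change 2.19) did not pass when the second cTEC library was left out (edgeR adjusted p = 0.077). Crip3, Hpgd, Ppp1r16b and Cyp26b1, at 1.30, 2.41, 1.47 and 2.39, each lost their call in 4 or 5 of 9 alternatives, with highest adjusted p of 0.373, 0.163, 0.221 and 0.432 in edgeR or DESeq2, and these 4 kept their direction in all 9. Fits that leave out a library also drop the data set term, and dropping that term alone ended the calls of Crip3, Hpgd and Cyp26b1, so for these 3 genes the part of the library left out cannot be told apart. The calls were lost without either mTEC or the second cTEC library for Crip3, without either cTEC or the second mTEC library for Hpgd, and without the first library of either group for Cyp26b1. Ppp1r16b kept its call without the term and lost it without the first cTEC or either mTEC library and without the cells with thymocyte UMIs. DESeq2 did not call Ppp1r16b or Cyp26b1. Cyp26b1 was at 16.1 and 2.23 CPM in cTEC against 0.78 and 1.53 in mTEC. Hes6 was at 246 and 498 CPM in cTEC and 356 and 302 in mTEC, so the groups overlapped (log2 fold change 0.02, SE 0.41, edgeR adjusted p = 0.978).

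**Figure D5:**
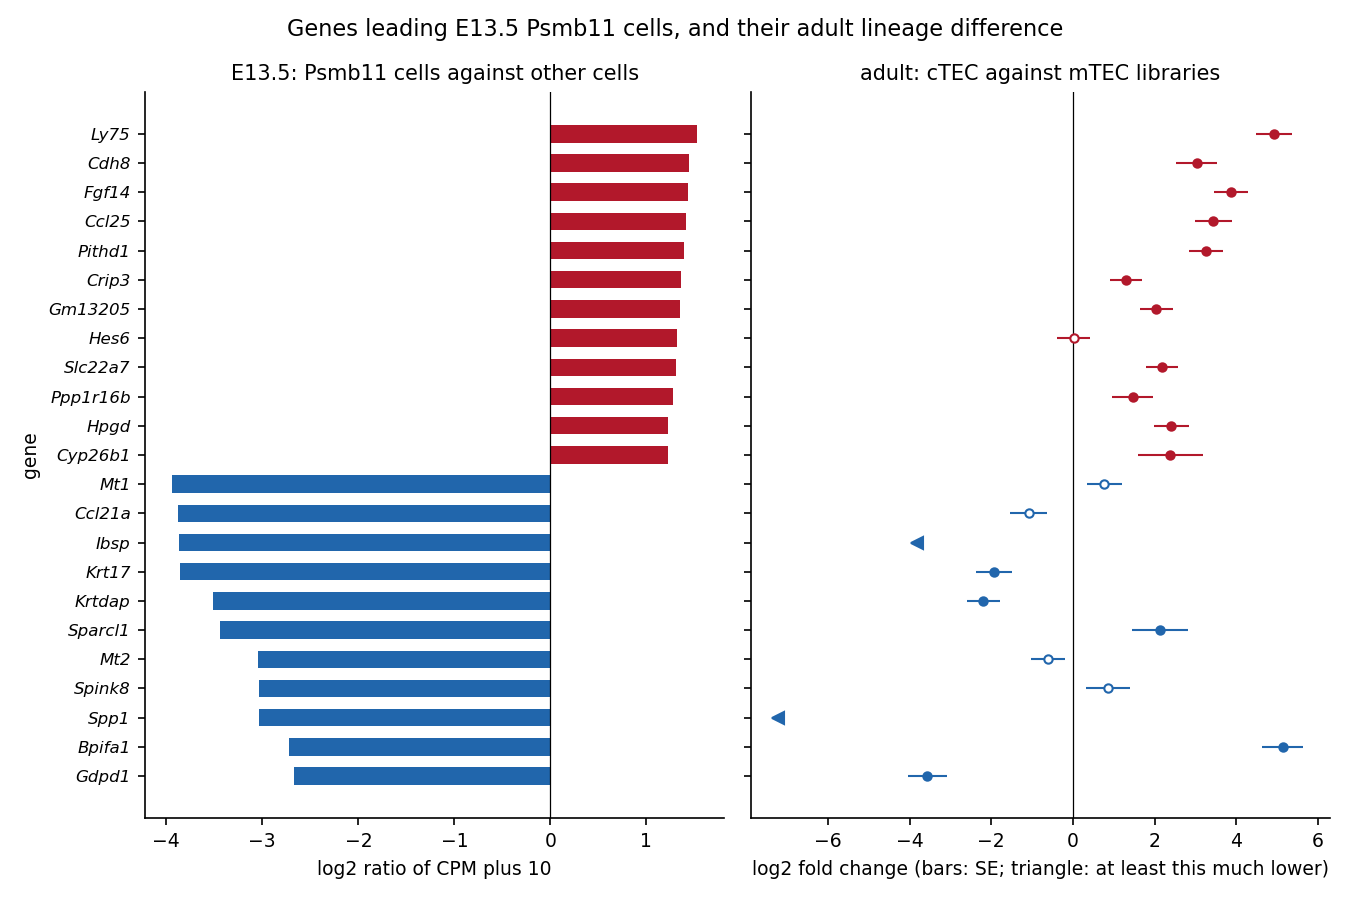
The 12 genes highest (red) and 11 of the 12 lowest (blue) in E13.5 Psmb11 cells against the other E13.5 cells, with that log2 ratio on the left and the adult log2 fold change of cTEC against mTEC on the right (bars are SE, filled points passed edgeR's test, triangles mark bounds for Ibsp and Spp1). All 12 red genes lie at or right of 0 in the adult, while the blue genes lie on both sides. Pth was not tested in the adult.

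Of the 12 lowest genes, 11 were tested in the adult, and 5 were lower and 2 higher in cTEC. Several of them, such as Bpifa1, Ibsp and Spp1, passed the minimum at E13.5 only through cells that the limits left out. The count therefore describes genes of those cells rather than of the Psmb11 cells. Krt17 was at 1540 and 924 CPM in cTEC against 4700 and 3893 in mTEC (log2 fold change -1.92, SE 0.44, edgeR adjusted p = 0.000455), a call that was lost without either mTEC library (highest adjusted p 0.114). Krtdap and Gdpd1 were lower too (log2 fold changes -2.19 and -3.56). Spp1 and Ibsp, both without a UMI among adult cTEC, were at least 150-fold and 14.0-fold lower there, taking 3 counts over the group as the floor. The call of Ibsp was lost without the second cTEC library (edgeR adjusted p = 0.0512) and that of Spp1 in DESeq2 (adjusted p = 0.0591). Bpifa1, an airway-type secretory protein, was higher in adult cTEC, at 2923 and 1451 CPM against 40.6 and 75.5 (log2 fold change 5.14, SE 0.51, edgeR adjusted p = 6.98e-12), whereas at E13.5 it was at 3.59 CPM in Psmb11 cells and 161 in Krt5 cells. Sparcl1 was the other gene that was higher, at 13.9 and 4.21 CPM against 1.26 and 2.09, and its call was lost in 5 of 9 alternatives, namely without the first cTEC or either mTEC library, without the data set term and in DESeq2 (highest adjusted p 0.194).

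The genes that stood highest against the cells without Psmb11 were mixed in the adult. Of 8, 5 were higher in cTEC (Ccl25, Ppp1r27, Crip3, Tbata and Gm13205), H2-Aa was lower, and Cd74 and Plcd1 did not pass. H2-Aa, at log2 -1.12, lost its call in 7 of 9 alternatives, among them the removal of any 1 of the 4 libraries (highest edgeR adjusted p = 0.451). Ppp1r27 did not pass without the second cTEC library (edgeR adjusted p = 0.101), nor Tbata without the first mTEC library (edgeR adjusted p = 0.0651). Of the 8 that stood lowest, Dcn, Tshz2 and Nr2f2 were higher in adult cTEC, with log2 fold changes of 2.60, 2.87 and 1.91, and Cldn7 was lower, at -1.73. Dcn passed in all alternatives run. Tshz2 was lost without the first cTEC library, Nr2f2 without that library or either mTEC library and in DESeq2, and Cldn7 without either cTEC or the second mTEC library (highest adjusted p 0.0584, 0.201 and 0.121). Dcn was at 487 and 310 CPM in adult cTEC and 78.4 and 46.8 in adult mTEC, and at 2.03 in the E13.5 Psmb11 cells.

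Of the 15 cortical genes in the table, Psmb11 included, 13 were higher in adult cTEC and 0 lower, with a median log2 fold change of 3.59, against -0.14 over all genes. One of them, Enpep, encodes the Ly51 antigen by which these libraries were sorted, so gate and cell type cannot be told apart for it, and Psmb11 defines the E13.5 cells. Psmb11 was at 678 and 1395 CPM in adult cTEC against 3.91 and 8.57 in mTEC. Foxn1 (log2 fold change 0.91, SE 0.38, edgeR adjusted p = 0.055) and Scx were those that did not pass, and Il7 (1.10) passed in 2 of 9 alternatives and was lost without any 1 of the 4 libraries (highest edgeR adjusted p = 0.545). Of the 19 medullary and progenitor-associated genes, 12 were lower and 1, Ltbr, was higher in cTEC. Cldn4 and Plet1, at 5.77 and 6.09 CPM in E13.5 Psmb11 cells, did not pass in the adult (log2 fold changes -0.57 and -0.54, edgeR adjusted p = 0.281 and 0.349).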

How the data were processed

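Single-cell RNA-seq of sorted TEC from 8 libraries was analysed. The authors deposited filtered 10x matrices of raw UMI counts per gene and cell. The submitters' processing notes name bcl2fastq 2.17, STAR 2.5.1b, Cell Ranger 2.0.1 and mm10, while Cell Ranger 3.0.1 stands in the headers of the matrices from data set 2. The gene lists of the 2 data sets (27998 and 31053 genes) share 27514, which were used here. No doublet caller was run, and no cell was removed as one.

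Cells and lists were chosen with earlier results of these data known. UMIs were summed per group and given as CPM. Genes at 20 CPM or more in the higher group were called at 2-fold after adding 10 CPM. Named genes were those of the lists, the 12 at each end against the other E13.5 cells, the 8 at each end against cells without Psmb11 and the 6 at each end against E15.5. Shares were computed after thinning each cell to 3000 UMIs. Adult libraries were compared by edgeR 4.0.16 (quasi-likelihood, TMM, filterByExpr, Benjamini-Hochberg, R 4.3.3). With no statement that libraries came from separate mice, p-values measure the spread between these libraries, which may be technical. With so few libraries, edgeR takes most of the spread of a gene from all genes together. A small p-value therefore does not measure the spread of that gene alone. SE was derived as the absolute log2 fold change over the square root of the F statistic. Tested on simulated data for the adult comparison (15650 genes), the fit recovered 181 of 200 genes changed by log2 2, and 5.73% of its 192 calls were false. Positions came from GENCODE M21 on GRCm38. Alternatives were other limits, pseudocounts, scalings, depths, DESeq2 1.42.0, no data set term, and leaving out each adult library.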

Additional observations from a re-analysis of the deposited data

How the results depend on the processing

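The share of Psmb11 cells (42.7%) was 30.3% with cells thinned first, 28.4% and 20.2% with Psmb11 at 2 or 3 UMIs and 33.9% with no Krt5 UMI. Against the other E13.5 cells, the 41 higher genes became 73 with a pseudocount of 1 CPM, 22 with a minimum of 100 CPM and 27 without parathyroid-gene and thyroid-gene cells, and the 129 lower genes 40 at 100 CPM. Against E15.5, the 200 higher genes became 356 at a pseudocount of 1 CPM and 90 at 100 CPM, and the 277 lower genes 113. The share at the cycle minimum was 97.8% at 5 UMIs and 75.6% at 20 UMIs. Shares with a UMI were 91.4% unthinned and 67.4% at 2000 UMIs for Prss16, 51.4% and 20.5% for Foxn1, and 87.3% and 66.5% for Ccl25. In the adult comparison, DESeq2 called 945 genes higher and 1646 lower, and leaving out 1 library, without the data set term and with a lone sample assumed to vary like the other group, gave 619 to 869 higher and 1348 to 2079 lower. The cause of these changes was not tested. No called result turned its direction, and the other 36 values of these summaries stayed within their error or, for counts, within 1.5 times the main count. Among single genes, 951 values kept their call or moved within their error, 86 lost a call, 8 gained one and 61 moved. The alternatives without shared barcodes and without parathyroid-gene and thyroid-gene cells were chosen after seeing the data. The data set term pairs the adult cTEC and mTEC libraries of 1 data set, and without it 1360 genes were higher and 2897 lower.

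The E13.5, E15.5, E17.5 and NB ages had 1 library each, so the differences between E13.5 groups and between ages have counting error only. A cell with 1 UMI of Psmb11 cannot be told apart from a cell that caught free RNA, and a cell with 0 from one whose transcripts were missed.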
